A study of Homo sapiens with 6 samples.

Results

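The homologous recombination and Fanconi repair genes are described here as they are transcribed in MDA-MB-231, a triple-negative breast cancer line that is widely used in the laboratory. They were chosen by a fixed pattern of gene symbols that covers *BRCA1* and *BRCA2* with their partners, the *RAD50* to *RAD54* series, the Fanconi genes from *FANCA* to *FANCM*, the damage checkpoint kinases and the nucleases and helicases that work with them. The pattern matched 48 of the 15917 genes listed in the deposited table, and 0 annotated genes with a matching symbol were without a row. Total RNA was sequenced in 6 libraries, with 2 from cells carrying a control hairpin (shCTRL), 2 from cells carrying the hairpin shRBMS3-B3 and 2 from cells carrying the hairpin shRBMS3-C3. Both latter hairpins target *RBMS3*, which encodes an RNA-binding protein of the RBMS family. By the study's methods, all lines derive from luciferase-labeled cells and were made by lentiviral transduction and puromycin selection, and the control plasmid carried a scrambled hairpin. Each line is thus a pool of transduced cells. The hairpins against *RBMS3* act by RNA interference, which lowers an RNA rather than removing its gene.

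Each value below is the authors' mean normalized count, a single number per gene averaged over libraries after division by size factors. Which of the 6 libraries entered the mean is not given in the sources used here. Control and knockdown cells therefore cannot be told apart in any value. The spread between replicates is not known, and no level below carries an error or a test. An order of 2 genes is an order of these means only. The comparison of knockdown with control cells was not made, and the loss of *RBMS3* RNA in knockdown cells could not be checked. Because a long transcript yields more reads than a short one of equal abundance, levels of different genes are set against each other per kilobase, as the mean normalized count divided by the length of the gene's representative transcript. Mean normalized counts, which also grow with length, are given as the values behind them.

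Homologous recombination repairs a broken chromosome by copying the sister chromatid. The broken ends are first cut back to single strands, BRCA2 helps to build a protein filament on them, and the coated strand then invades the matching sequence. The Fanconi pathway unhooks crosslinks between the DNA strands: a core complex attaches ubiquitin to FANCD2 and FANCI, nucleases cut around the lesion, and recombination mends the break that remains. Inherited mutations in many of these genes cause Fanconi anemia or predispose to breast and ovarian cancer, and loss of the pathway sensitizes tumors to crosslinking drugs and PARP inhibitors.

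All 6 markers of MDA-MB-231 cells were listed, but so were 5 of the 8 luminal and receptor markers. The highest of the 6 was *VIM*, the mesenchymal intermediate filament gene, at 32189 per kilobase. Of 8 luminal and receptor markers, *ESR1*, *PGR* and *FOXA1* had no row, *CDH1* was at 6.57 and *ERBB2*, the HER2 gene, at 342 per kilobase, and *KRT19* was the highest at 4925. Of 7 blood and stroma markers, 5 had no row and *COL1A1* was the highest at 32.5 per kilobase. The targeted gene *RBMS3* had a mean normalized count of 272, or 32.1 per kilobase of representative transcript. That is below all 48 repair genes on this scale, but by mean normalized count some repair genes, such as *RAD51B* at 115, were lower. Knockdown libraries may be part of the *RBMS3* mean, and its level with other lengths is not given here. Its paralogs *RBMS1* and *RBMS2* were at 116 and 444 per kilobase.

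The 48 repair genes lay near the middle of the transcriptome. Since the RNA came from whole cultures, more cells with a transcript and more RNA per cell cannot be told apart. Their mean normalized counts ran from 115 for *RAD51B* to 3127 for *MDC1*, with a median of 662. The median of the 12408 listed protein-coding genes was 526, and 30 of the 48 lay above it before length was taken into account. Per kilobase the median of the repair genes was 134 and that of protein-coding genes 152, and 21 repair genes lay above this median and 27 below. The repair genes have long transcripts, with a median length of 4584 bases against 3439 for listed protein-coding genes, and many exons, with a median of 15 against 9. Across the 48 genes, transcript length and mean normalized count had a Spearman correlation of 0.49, against 0.085 across all 12408 protein-coding genes, where the genes are not independent replicates and share the same libraries. Length and level per kilobase had correlations of -0.12 and -0.36 across the same sets.

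From *WRN* at 38.1 to *FANCG* at 636 per kilobase the levels covered a 16.7-fold range. Of the 48 genes, 41 lay within the middle 50% of protein-coding genes, which reached from 55.8 to 398 per kilobase. A group of 5 genes lay under it, namely *WRN*, *FANCB*, *RAD54B*, *FANCF* and *FANCM*, and 2 genes lay above it, *FANCG* and *MDC1*. None of the 48 (0 genes) reached the upper 10%. These ranks hold for the representative transcript. With all exons of a gene merged, the range was 130-fold, from *FANCL* at 3.17 to *MDC1* at 410, and 33 genes lay in the middle 50% of protein-coding genes on that scale. Per coding kilobase it was 23.4-fold, from *FANCB* at 45.1 to *RNF168* at 1057, with 34 genes in the middle 50%, and with the longest coding transcript it was 34.0-fold, from *FANCB* at 18.7 to *FANCG*, with 39.

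**Figure D1:**
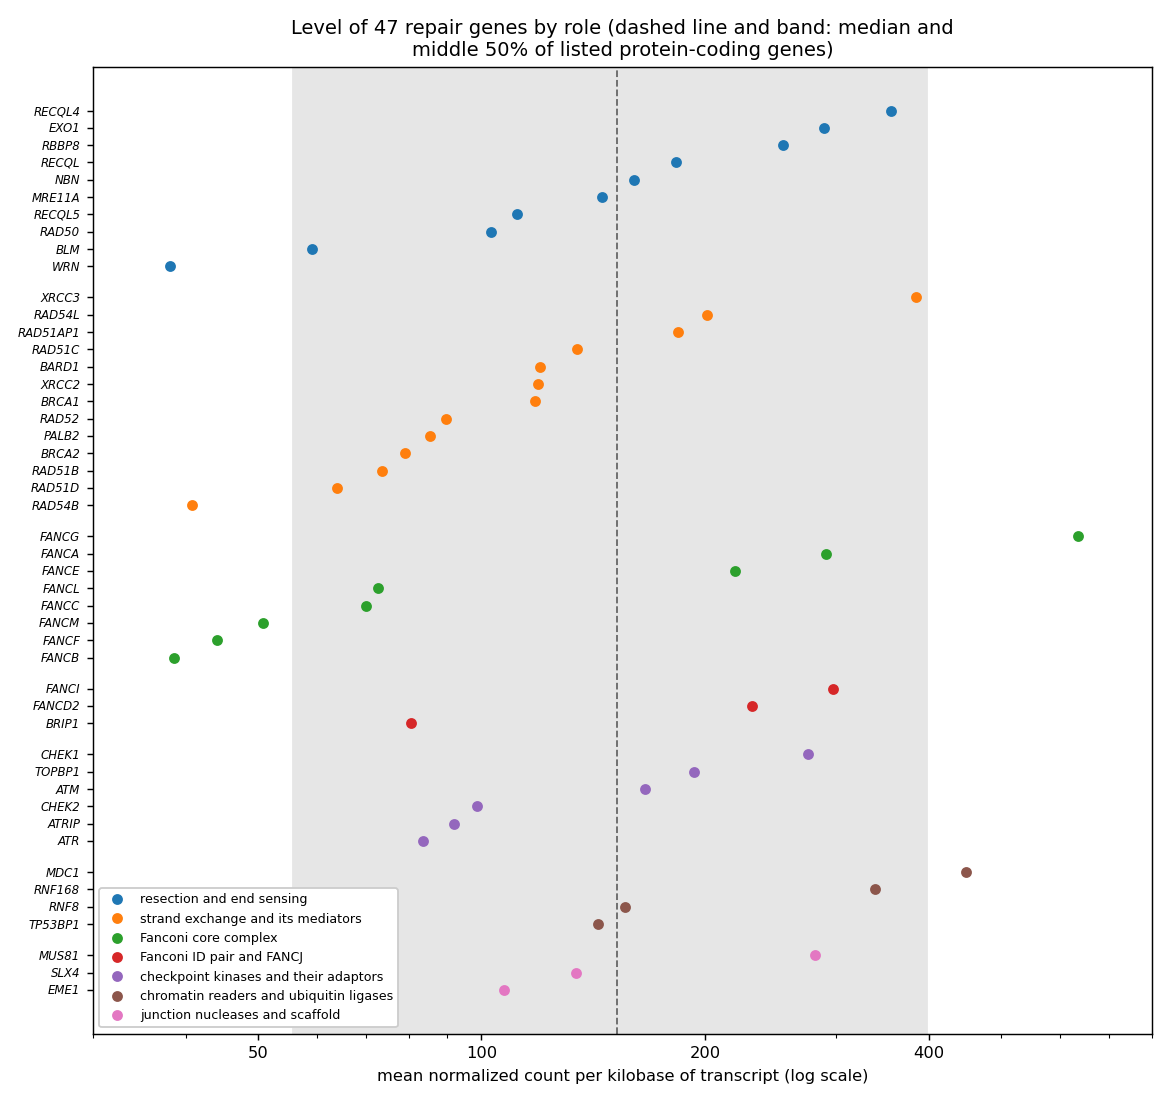
Each point is the authors' mean normalized count per kilobase of representative transcript (x axis, log scale) of 1 of 47 repair genes, ordered within 7 role groups. The dashed line marks the median of listed protein-coding genes, 152, and the gray band their middle 50%, from 55.8 to 398. A total of 40 points lie in the band, *FANCG* and *MDC1* lie to its right, and 5 genes, 3 of them of the Fanconi core complex, lie to its left.

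Genes of end sensing and resection, with which all RecQ helicases were grouped whatever their main role, were spread around the protein-coding median. The 10 genes of this group had a median of 153 per kilobase, and 5 of them lay above the protein-coding median. *RECQL4*, a RecQ helicase also needed for replication initiation, was the highest with a mean normalized count of 1360, or 356 per kilobase (chromosome 8, 144511288 to 144517845, minus strand). *EXO1*, the nuclease that extends resection over long distances, followed at 289, and *RBBP8*, which encodes CtIP, the cofactor that lets MRE11 begin resection, was at 254 per kilobase. Of the damage sensor made of MRE11, RAD50 and NBN, *NBN* was at 161, *MRE11A* at 145 and *RAD50* at 103 per kilobase. They lay further apart with all exons merged, with *NBN* at 38.2, *MRE11A* at 129 and *RAD50* at 80.5.

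The RecQ helicases reached from one end of the resection group to the other. *RECQL* was at 183, *RECQL5*, a helicase that restrains recombination, at 112 and *BLM*, the Bloom syndrome helicase that also dissolves double Holliday junctions, at 59.2 per kilobase. *WRN*, the Werner syndrome helicase and exonuclease (chromosome 8, 31033788 to 31176138, plus strand), was the lowest of all 48 genes by representative transcript, with a mean normalized count of 288 over a transcript of 7575 bases.

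Strand exchange and its mediators formed the largest group, with 14 genes and a median of 119 per kilobase, and 4 of the 14 lay above the protein-coding median. A set of 5 genes whose proteins form complexes that assist strand exchange was spread widely. *XRCC3* was the highest of the group at 385 (chromosome 14, 103697609 to 103715504, minus strand), while *RAD51C* was at 134, *XRCC2* at 119, *RAD51B* at 73.5 and *RAD51D* at 64.0 per kilobase. The value for *RAD51D* rests on a representative transcript of 9966 bases whose 3′ untranslated region (3′ UTR) alone takes 8732 bases. Per kilobase of coding sequence *RAD51D* was at 648, close to *XRCC2* at 676.

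The genes of the BRCA1 to BRCA2 axis lay below the protein-coding median. *BRCA1* and *BARD1*, whose proteins form a ubiquitin ligase, were at 118 and 120 per kilobase, and *PALB2*, which links BRCA1 to BRCA2, and *BRCA2* were at 85.2 and 79.0. *BRCA2* has the longest coding sequence of the 48 genes, 10254 bases, and had a mean normalized count of 944. Among the accessory genes, *RAD54L*, a motor protein that helps strand invasion, was at 201, *RAD51AP1*, a stimulator of strand invasion, at 184 and *RAD52*, which anneals single strands, at 89.7 per kilobase. *RAD54B*, the paralog of *RAD54L* (chromosome 8, 94371960 to 94475115, minus strand), had a mean normalized count of 125 and was at 40.8 per kilobase, the third lowest level of all.

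The Fanconi core complex was uneven. Its 8 genes had a median of 71.3 per kilobase and covered a 16.5-fold range, nearly that of all 48 genes, since the group holds the highest and the second lowest of them. The range was 92.4-fold with merged exons and 19.3-fold per coding kilobase, where that of the strand exchange group was 20.7-fold. *FANCG*, a scaffold subunit (chromosome 9, 35073835 to 35080004, minus strand), had a mean normalized count of 1626 over a transcript of only 2556 bases, which gave 636 per kilobase. *FANCA*, which binds FANCG, was at 291, and *FANCE*, which bridges the core to FANCD2, at 220 per kilobase. The other 5 genes lay between the 18.3 and 30.8 percentiles of protein-coding genes: *FANCL*, the ubiquitin ligase subunit, was at 72.6, *FANCC* at 69.97, *FANCM*, the DNA translocase that anchors the core, at 50.9, *FANCF* at 44.01 and *FANCB* at 38.5 per kilobase. *FANCM* lies on chromosome 14 (45135930 to 45200890, plus strand), *FANCF*, a gene of 1 exon, on chromosome 11 (22622533 to 22625823, minus strand), and *FANCB* on chromosome X (14690388 to 14873255, minus strand).

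The targets of the core complex had higher mean levels than most of its subunits. *FANCI* and *FANCD2*, the pair that is ubiquitinated, were at 298 and 231 per kilobase, with mean normalized counts of 1409 and 1178. *BRIP1*, the helicase known as FANCJ that binds BRCA1, was at 80.4 per kilobase. The median of the 3 genes was 1.52 times that of protein-coding genes, but 0.839 times when all exons of each gene were merged.

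Among the checkpoint genes the ATR arm was uneven. *CHEK1*, the effector kinase of ATR, was at 275 and *TOPBP1*, the activator of ATR, at 193, while *ATR* and its partner *ATRIP* were at 83.5 and 91.9 per kilobase. *ATM*, the kinase that answers to double-strand breaks, has the longest transcript of the 48 genes, 12915 bases with 63 exons, and was at 166 per kilobase with a mean normalized count of 2141. *CHEK2*, the effector kinase of ATM, was at 98.5 per kilobase with a mean normalized count of 182. The group of 6 had a median of 132.

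Chromatin readers and ubiquitin ligases had the highest median of the 7 groups, 247 per kilobase over 4 genes. *MDC1*, the adaptor that binds phosphorylated H2AX at breaks (chromosome 6, 30699807 to 30717447, minus strand), was at 449 per kilobase, with a mean normalized count of 3127. *RNF168*, a ubiquitin ligase for histone H2A (chromosome 3, 196468783 to 196503768, minus strand), was at 339, *RNF8*, the ligase that acts before it, at 156, and *TP53BP1*, which encodes the resection antagonist 53BP1, at 143. Of the junction nucleases, *MUS81* was at 282, its partner *EME1* at 107 and the scaffold *SLX4* at 134 per kilobase. Their median was 0.879 times that of protein-coding genes, and 1.03 times with merged exons.

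The mean levels of genes whose proteins bind each other ranged from nearly equal to several fold apart. The closest partners were *BARD1* and *BRCA1*, with a ratio of 1.01, *PALB2* and *BRCA2* with 1.08, *ATRIP* and *ATR* with 1.10, and *FANCI* and *FANCD2* with 1.29. At the other end, *FANCE* was 4.99 times as high as *FANCF* and 3.14 times as high as *FANCC*, the other members of its subcomplex. *XRCC3* was 2.86 times as high as *RAD51C*, *MUS81* 2.63 times as high as *EME1* and *FANCG* 2.18 times as high as *FANCA*. *MRE11A* and *NBN* were 1.41 and 1.56 times as high as *RAD50*, and *FANCL* 1.88 times as high as *FANCB*. Within the complex of RAD51B, RAD51C, RAD51D and XRCC2, *RAD51C* was 1.83 times as high as *RAD51B* and *XRCC2* 1.86 times as high as *RAD51D*. Genes with related functions differed as well: *RAD54L* was 4.93 times as high as *RAD54B*, *CHEK1* 2.79 times as high as *CHEK2* and *RNF168* 2.17 times as high as *RNF8*.

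These ratios depend on which length stands for a gene. With all exons of a gene merged, the order turned for *NBN* over *RAD50* (0.475), *PALB2* over *BRCA2* (0.702), *FANCI* over *FANCD2* (0.794) and *FANCL* over *FANCB* (0.362). Per kilobase of coding sequence none of the 17 pairs turned (0 pairs), but some ratios moved far. *BARD1* over *BRCA1* was 1.47 with merged exons and 1.88 with coding length, and *ATRIP* over *ATR* 3.09 and 2.06. *CHEK1* over *CHEK2* was 5.02 with merged exons and 7.14 with coding length, and *XRCC2* over *RAD51D* 1.56 and 1.04. *FANCE* over *FANCF* was 2.76 with merged exons and 2.73 with coding length, *FANCE* over *FANCC* 6.97 and 1.83, and *XRCC3* over *RAD51C* 6.27 and 3.12, so that the widest pair differed with each length.

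**Figure D2:**
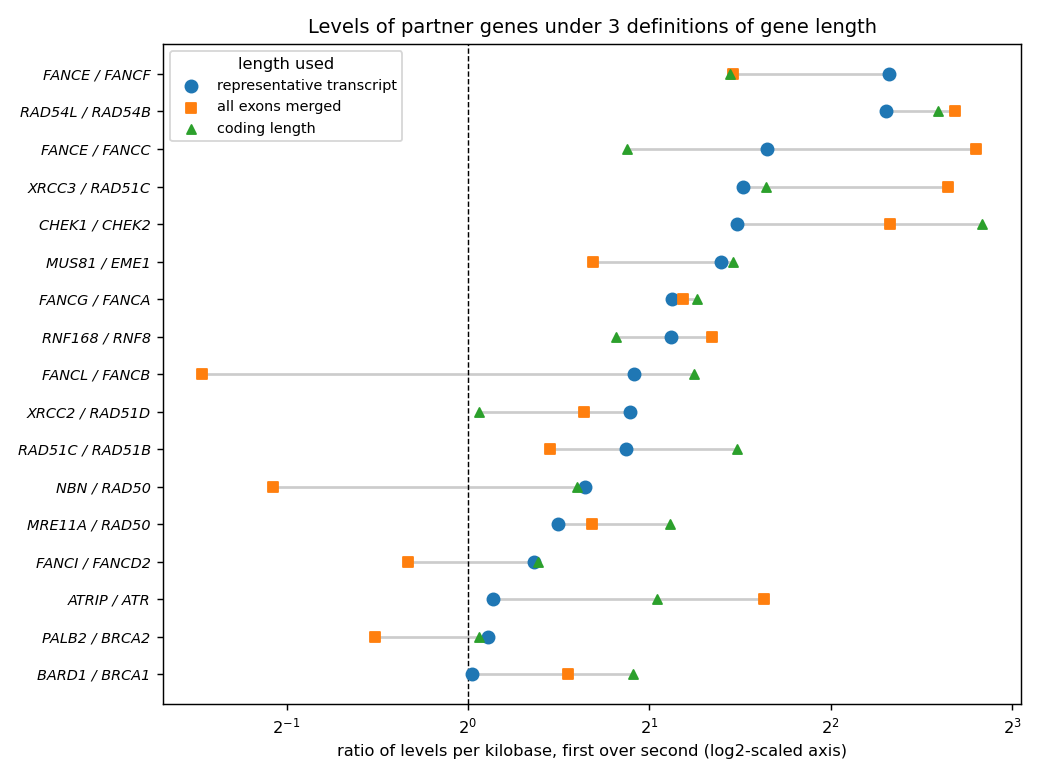
Ratio of the levels per kilobase of 17 pairs of repair genes (x axis, log2-scaled), first gene over second, with the length of the representative transcript (circles), of all exons merged (squares) and of the coding sequence (triangles), and the dashed line at equal levels. The circles lie at or to the right of the line by the order in which pairs were written, from 1.01 for *BARD1* over *BRCA1* to 4.99 for *FANCE* over *FANCF*, and 4 squares lie to its left.

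The other genes of the pathway covered a wider range than the 48. Of 51 further genes of recombination, crosslink repair and their checkpoints, 50 were listed, with a median of 177 per kilobase, and *SLX1B* had no row. They ran from *EME2*, a second partner of MUS81, at 20.7 to *H2AFX*, the histone variant that is phosphorylated at breaks, at 4240, and 10 of them lay above *FANCG*. Some of these genes belong to complexes described above. In the core complex, *FAAP20*, the partner of FANCA, was at 892 and *FAAP100*, the partner of FANCB and FANCL, at 309, both above the genes that they partner. With merged exons *FAAP20* was at 59.4 and *FANCA* at 129, so that their order turned. *UBE2T*, the conjugating enzyme that works with FANCL, was at 1003, and *USP1*, which removes the ubiquitin, at 493 per kilobase with its cofactor *WDR48* at 115. For the nucleases that SLX4 binds, *SLX1A* was at 360, *ERCC1* at 358 and *ERCC4* at 38.2.

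Other repair pathways, shown for their levels only, overlapped the 48 genes. The 11 genes of non-homologous end joining, which ligates ends without a template, had a median of 154 per kilobase, from *APLF* at 22.8 to *XRCC6*, which encodes Ku70, at 3832, and 4 of them lay above *FANCG*. The 7 mismatch repair genes had a median of 126, from *MLH3* at 41.6 to *MSH6* at 611. Medians were higher for nucleotide excision repair, 244 over 12 genes from *ERCC8* at 27.6 to *DDB1* at 1906, and for base excision repair, 232 over 17 genes from *NEIL1* at 19.8 to *FEN1* at 2443. With merged exons the median for base excision repair went from 1.52 to 0.9501 times that of protein-coding genes, below end joining at 0.988 times.

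**Figure D3:**
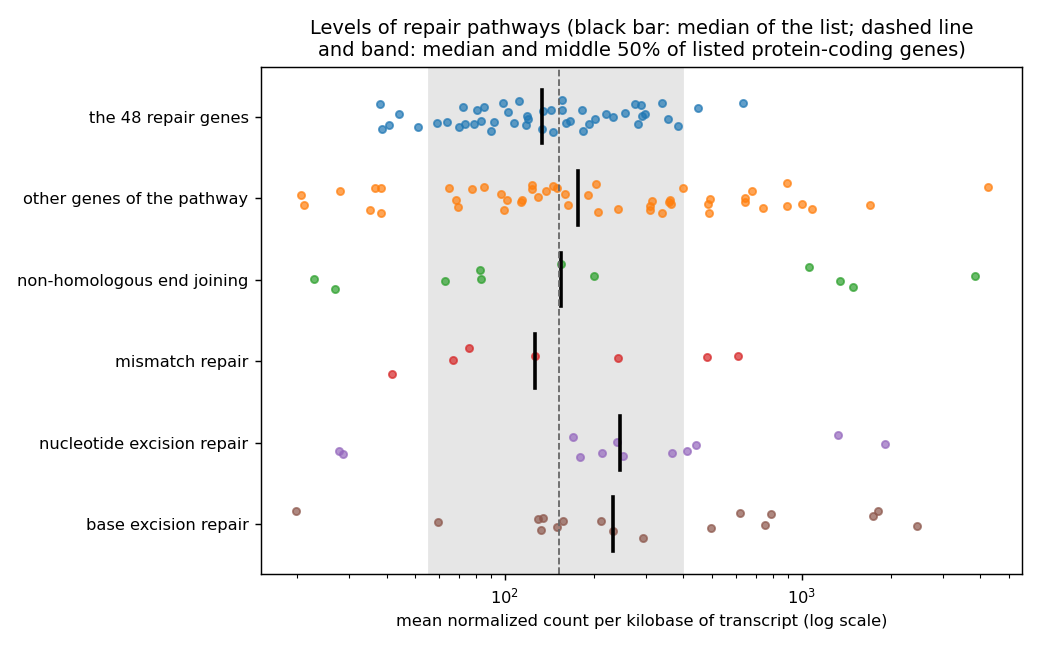
Each point is the mean normalized count per kilobase (x axis, log scale) of 1 listed gene, for the 48 repair genes and 5 further lists, and the black bar is the median of the list. The dashed line and band mark the median of listed protein-coding genes, 152, and their middle 50%. The 48 genes span 38.1 to 636, whereas end joining spans 22.8 to 3832.

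The study asked which transcripts RBMS3 acts on, and its model linked RBMS3 to a short A and U rich element, here named the AUA element. The paper reports this element enriched in RNA bound by RBMS3. It reports the same for 3′ UTRs of transcripts that fell or decayed faster after knockdown. The element has 7 bases, read in the DNA alphabet as A, G or T, then A or T, then ATA, then A or T, then A. In the 3′ UTR of the representative transcript, 44 of the 48 repair genes (91.7%) had at least 1 match, against 84.8% of 12350 listed protein-coding genes. *CHEK2*, *EME1*, *FANCG* and *SLX4* had none (0 matches). The largest numbers were 37 in *RAD51D*, 18 in *WRN* and *XRCC2*, 16 in *BRIP1* and 15 in *FANCF*. A match is a description of the letters.

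The counts rose with 3′ UTR length. Across genes, the number of matches and the length had a Spearman correlation of 0.71 over the 48 repair genes and 0.72 over the 12350 background genes. Pooled over the 80269 bases of their 3′ UTRs, the repair genes had 268 matches, or 3.34 per kilobase, against 2.79 in the background. The median A+U content of their 3′ UTRs was 60.3%, against 57.9%. The polyadenylation signal AATAAA contains most of the element: 104 of the 268 matches (38.8%) held it, 35 of them within 50 bases of the transcript's end, against 36.0% of matches in the background. In 6 classes of 3′ UTR length, 27 of the 48 genes had more matches than the background median of their class and 14 had fewer. The class of 2000 to 4000 bases had 8 above and 3 below, *RNF8*, *ATRIP* and *FANCC*, while that of 500 to 1000 bases had 4 and 4 and that over 4000 bases 2 and 2.

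**Figure D4:**
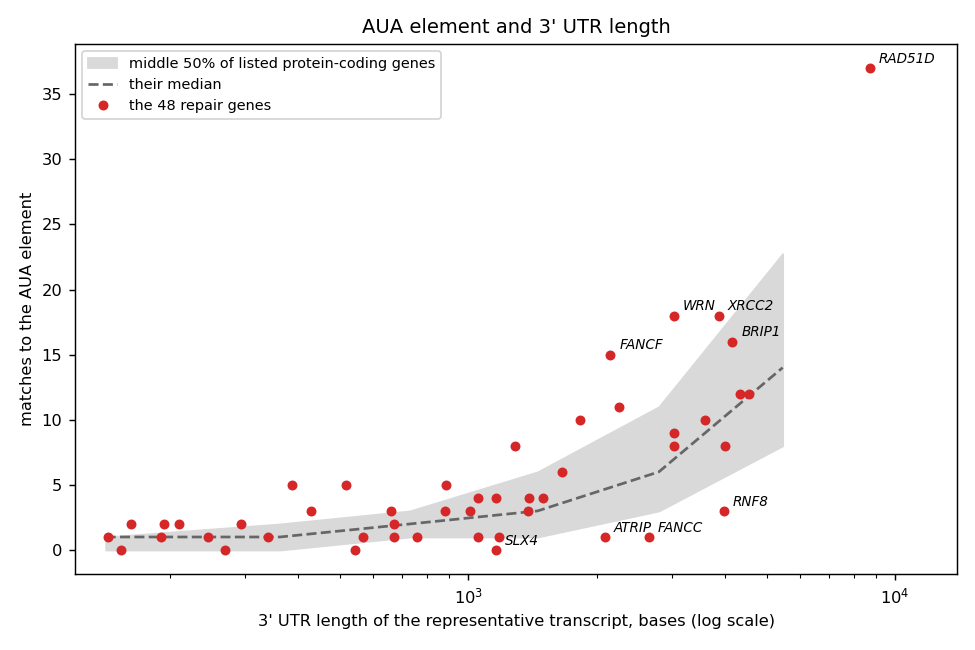
Matches to the AUA element (y axis) against the 3′ UTR length of the representative transcript in bases (x axis, log scale) for the 48 repair genes, with the median (dashed line) and middle 50% (gray band) of listed protein-coding genes in 6 length classes, drawn at each class's median length. *RAD51D*, with 37 matches in 8732 bases, stands alone at the upper right. *FANCF*, *WRN* and *XRCC2* are among the genes above the band, and *RNF8* and *FANCC*, with long 3′ UTRs, have 3 and 1.

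The first match with room for 11 bases on either side is given for 5 of the genes with the most matches, so that the element can be seen in its context. Capitals mark the 7 bases of this first match, while the window of *FANCF* holds further matches in lower case. Sequences run 5′ to 3′ in the sense of the transcript, from the reference genome hg38. The genes are on the minus strand, and the windows lie in exons of the 3′ UTR, at chr17:35100773-35100801 for *RAD51D*, chr7:152647073-152647101 for *XRCC2*, chr17:61682462-61682490 for *BRIP1*, chr11:22624648-22624676 for *FANCF* and chr11:94419885-94419913 for *MRE11A*, which has 12 matches.
RAD51D: tctctgtaagcATATAAAccacaggcgaa
XRCC2: ccaaatggctaTTATAAAaatgtcagaaa
BRIP1: cattctttgtaTAATAAAcctaaaaccaa
FANCF: tgttattacttGAATATAgaatatatagt
MRE11A: agtaaagattaAAATAAAgctaccatttt

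The element begins 21 bases after the stop codon in *FANCF* and 163 in *RAD51D*, against 1552 in *XRCC2*. The 5 windows carry 5 different forms of the element, and 4 of them, all but that of *FANCF*, end in the letters ATAAA.

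Promoters were read next, since many repair genes are known to be transcribed in S phase under E2F factors. RefSeq windows of 300 bases, from 250 before to 50 after a start on GRCh38.p14, were matched for 42 of the 48 genes, with 55 windows in all, and *FANCI*, *NBN*, *RAD54B*, *RECQL4* and *WRN* are among those not matched. Letters were searched on both strands and may overlap one another. The CCAAT box (CCAAT) was found in 26 windows (47.3%), against 34.6% of all 35116 windows of the table and 35.0% of the 15461 windows of listed genes. The GC box (GGGCGG) was in 69.1%, against 44.95% of all windows and 65.4% of those of listed genes, a gap of 24.1 percentage points to all windows and of 3.65 to those of listed genes. The TATA box (TATAAA) was in 1 window, that of *RAD52* (1.82%), against 11.5% and 6.44%.

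Exact letters of the E2F type were in few windows, but GCGCGAAA and TTTCCCGC were in larger shares than in the background. Looser forms of these sites were not searched. The letters GCGCGAAA were found in 3 windows (5.45%), those of *EXO1*, *FANCC* and *TOPBP1*, against 0.515% of all windows and 0.886% of windows of listed genes. TTTCCCGC was also found in 3 windows, those of *FANCC*, *FANCD2* and *XRCC2*, against 1.63% and 2.33%, and TTTGGCGC in 0, against 0.652% and 0.983%. The cell cycle homology region TTTGAA was in 4 windows (7.27%), against 15.2% and 10.7%, and its variant TTCGAA and the ZNF143 site were in 0. With 3 windows each, the E2F counts are small, and several genes contribute more than 1 window.

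The first of 2 windows of *EXO1* (chr1:241847954-241848253, plus strand) and the window of *TOPBP1* (chr3:133661892-133662191, minus strand) are shown because they hold the letters GCGCGAAA or their reverse complement. The other window of *EXO1* has none of the letters searched (0 matches). The window of *MDC1* (chr6:30717232-30717531, minus strand) is shown for a gene whose start lies close to that of *TUBB*, and that of *EME1* (chr17:50372979-50373278, plus strand) as a window with none of the letters searched. Capitals mark matches to the motifs named above on either strand.
EXO1: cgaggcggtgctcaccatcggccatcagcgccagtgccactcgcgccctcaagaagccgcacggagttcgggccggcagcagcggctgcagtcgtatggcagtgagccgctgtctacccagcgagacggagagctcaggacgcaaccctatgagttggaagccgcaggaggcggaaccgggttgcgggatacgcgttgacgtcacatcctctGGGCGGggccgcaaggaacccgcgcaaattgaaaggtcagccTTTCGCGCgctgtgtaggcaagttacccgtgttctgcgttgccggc
TOPBP1: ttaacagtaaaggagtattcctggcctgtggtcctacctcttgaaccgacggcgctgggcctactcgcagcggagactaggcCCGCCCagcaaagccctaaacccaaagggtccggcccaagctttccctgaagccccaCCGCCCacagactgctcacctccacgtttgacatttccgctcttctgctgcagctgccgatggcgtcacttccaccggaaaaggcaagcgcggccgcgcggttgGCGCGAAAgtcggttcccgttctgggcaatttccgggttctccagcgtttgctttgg
MDC1: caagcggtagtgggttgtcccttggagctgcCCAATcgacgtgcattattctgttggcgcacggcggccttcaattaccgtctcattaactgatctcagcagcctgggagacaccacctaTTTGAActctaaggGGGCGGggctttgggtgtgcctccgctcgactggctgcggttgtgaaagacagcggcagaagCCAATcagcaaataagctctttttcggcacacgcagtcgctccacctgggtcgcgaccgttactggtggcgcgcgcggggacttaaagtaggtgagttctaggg
EME1: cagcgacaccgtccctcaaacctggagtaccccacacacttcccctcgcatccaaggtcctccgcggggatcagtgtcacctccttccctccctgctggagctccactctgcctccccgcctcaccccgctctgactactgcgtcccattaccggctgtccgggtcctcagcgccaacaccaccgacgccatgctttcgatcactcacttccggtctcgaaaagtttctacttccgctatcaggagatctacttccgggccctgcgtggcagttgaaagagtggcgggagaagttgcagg

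Positions within a window count from its RefSeq start, which in these genes differs from the annotated gene start used for neighbours. In *EXO1* the E2F type letters begin 4 bases past the start, and in *TOPBP1* they begin 7 before it. *MDC1* has CCAAT at 219 and at 54 bases before its start, with TTTGAA at 130 and a GC box at 116 between them. *EME1*, with no match, was at 107 per kilobase and *MDC1*, with 4, at 449. Between them, *EXO1*, with 2 matches in the window shown, was at 289, and *TOPBP1*, with 3, at 193. Whether matches go with level was not tested.

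Many of the repair genes start back to back with another gene. A gene on the opposite strand began within 1000 bases of the start of 32 of the 48 (66.7%), against 33.2% of listed protein-coding genes. With protein-coding neighbours alone the shares were 47.9% (23 genes) and 17.9%, and with neighbours that were themselves listed 35.4% (17 genes) and 15.6%. The known pair of *BRCA1* and *NBR1* starts 236 bases apart, *ATM* and *NPAT* 406, and *PALB2* and *DCTN5* 145.

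The levels of such neighbours lay on both sides of the repair gene. In the 17 pairs with a listed protein-coding neighbour, the neighbour was higher per kilobase in 10 and lower in 7. *TUBB*, a β-tubulin gene whose start lies 12 bases from that of *MDC1*, was at 16409 per kilobase, 36.6 times the level of *MDC1*. *MRPL27*, a mitochondrial ribosome gene 13 bases from *EME1*, was 9.14 times as high as *EME1*, *FKBP3* 7.46 times as high as *FANCM* and *NBR1* 5.46 times as high as *BRCA1*. In the other direction, *NPAT* was 0.471 times as high as *ATM*, and *MAP1A*, a neuronal microtubule gene, 0.0357 times as high as *TP53BP1*.

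**Figure D5:**
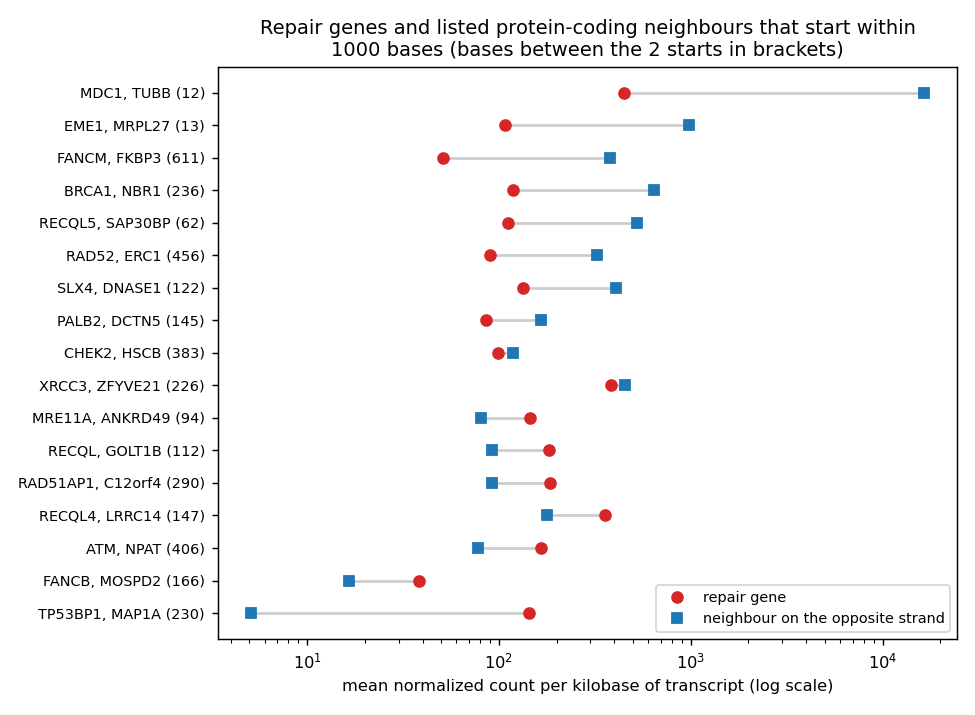
Levels as mean normalized count per kilobase (x axis, log scale) of 17 repair genes (circles) and of the listed protein-coding gene that starts within 1000 bases on the opposite strand (squares), with the bases between both starts in brackets. The neighbour lies to the right in the upper 10 pairs and to the left in the lower 7, from *TUBB* at 16409 to *MAP1A* at 5.12.

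Some of these levels are uncertain because exons are shared. On the same strand, 6 of the 48 genes share exon bases with another annotated gene, and 3 share over 10% of their representative transcript's length. *RAD50* shares 91.0% with a read-through gene (ENSG00000283782), which was listed at 7.05 per kilobase. *RAD54B* shares 65.5% with *FSBP*, at 23.4, and *ATRIP* 31.6% with *TREX1*, at 177 per kilobase. How reads were divided among such genes is not given in the sources used here. On the opposite strand, the largest overlaps were those of *TP53BP1* with *TUBGCP4* (3732 bases), *RECQL* with *PYROXD1* (1567) and *FANCA* with *ZNF276* (1492). Far more abundant partners were *LRRC59*, at 2414 per kilobase, which shares 541 bases with *EME1*, and *KLC1*, at 1652, which shares 878 with *XRCC3*. Many other repair genes have smaller overlaps of this kind. The libraries were made with a stranded kit, but whether counting used the strand is not stated. *CHEK2* has 8 named pseudogenes in the annotation, and *BRCA1*, *FANCD2*, *MRE11A*, *RAD51AP1*, *RAD52* and *RBBP8* have 1 each, none of which (0 genes) had a row.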

How the data were processed

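Total RNA of MDA-MB-231 cells was sequenced in 6 libraries, 2 per hairpin line. Libraries were prepared with a stranded kit for small RNA inputs, after depletion of ribosomal cDNA, and paired ends were read. The submitters' processing notes name Salmon, DESeq2 and hg38, with no version and no role.

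The authors deposited one table of genes. The signal used here is the mean normalized count that the authors deposited for each gene, the mean over libraries of counts divided by size factors, not divided by length. The table's other 5 numeric columns hold the authors' comparison (a log2 fold change, its standard error, the test statistic, the p-value and the adjusted p-value) and were not used. No counts per library were analysed, so the depth per sample is unknown, and no interval, replicate spread or test is given. The smallest listed mean is 26.7, and a gene without a row may lie below it.

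The annotation was GENCODE release 44 on hg38, matched through the Ensembl identifiers, of which it holds 15829 of 15917. Symbols follow the authors' table. For each gene a MANE Select transcript was taken as representative (all 48 genes have one), failing that the Ensembl canonical transcript, and failing both the longest coding one. The AUA element was counted with overlaps in 3′ UTRs of at least 7 bases, promoter sequences are those of RefSeq, and the windows were matched by symbol. Neighbours were searched among protein-coding and lncRNA genes. Functions were tested on simulated data. Python 3.11.15, numpy 2.4.6 and pandas 2.3.3 were used.

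The 48 genes and all lists were chosen with earlier results of these data known. One of the 48 genes and 1 cell line marker are not reported here singly, and the gene enters counts and medians only. The other 47 genes are named with their level, the 5 highest and 5 lowest per kilobase with their position, the partners of each complex with their ratio, *RBMS3*, *RBMS1* and *RBMS2* as the targeted gene and its paralogs, and of other lists the highest and lowest gene. *FAAP20*, *FAAP100*, *UBE2T*, *USP1*, *WDR48*, *SLX1A*, *ERCC1* and *ERCC4*, the neighbours and the overlapping genes were named after their values were seen. Alternatives were other transcript lengths, other backgrounds and other motif thresholds.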

Additional observations from a re-analysis of the deposited data

How the results depend on the processing

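All levels rest on means over libraries, so leaving out each replicate and fitting each hairpin alone were not run. No paired analysis was possible because each gene has only a mean over libraries. In all, 84 alternatives were computed for 49 results, and 49 of the alternatives stayed within the bound set for them, 26 moved and 9 turned direction. With all exons merged, the median of *FANCD2*, *FANCI* and *BRIP1* went from 1.52 to 0.839 times that of protein-coding genes and that of the junction nucleases from 0.879 to 1.03 times, while the ratio became 0.475 for *NBN* over *RAD50*, 0.702 for *PALB2* over *BRCA2*, 0.794 for *FANCI* over *FANCD2* and 0.362 for *FANCL* over *FANCB*. Added after the data were examined, merged exons also turned *FAAP20* over *FANCA* (0.461) and the medians of base excision repair (0.9501 times) and end joining (0.988 times). Merged exons count every annotated exon of a gene. The median of the 48 genes stayed below that of protein-coding genes under each length, from 0.718 times with coding length to 0.880 times with the representative transcript. With at least 3 matches required, the share of repair genes with the AUA element was 58.3%, against 53.1% of the background, since fewer genes pass. Counting protein-coding neighbours only, and then listed ones only, were alternatives added after the data were examined, and the gap of 33.5 percentage points between repair genes and background became 30.05 and 19.8.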
